A study of Mus musculus with 4 samples.

Results

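The calcium/calmodulin-dependent protein kinase (CaMK) genes *Camk1*, *Camk1d*, *Camk1g*, *Camk2a*, *Camk2b*, *Camk2d*, *Camk2g*, *Camk4*, *Camkk1* and *Camkk2* were examined for acetylation of histone H3 at lysine 27 (H3K27ac), a mark of active promoters and enhancers. They are 10 of 21418 autosomal protein-coding genes. The members were chosen by name, and each gene was taken as its body plus 20 kb upstream (called its span here), in the mm9 genome with the GENCODE vM1 annotation. Every H3K27ac region whose center fell in a span was counted, which gave 14 of 12566 *mdx* IKKβf/f regions and, for *mdx* HRTΔIKKβ hearts, 27 of 22981. Both groups were 7-month-old *mdx* mice, in which dystrophin, the protein missing in Duchenne muscular dystrophy, is absent. In *mdx* HRTΔIKKβ mice the cre recombinase driven by the cardiomyocyte promoter Myh6 removed from cardiomyocytes IKKβ, which switches on NF-κB. Littermates termed *mdx* IKKβf/f carried the floxed gene without cre and kept NF-κB signaling. Chromatin came from whole hearts, so every cell type of the heart contributed, and other cells than cardiomyocytes kept IKKβ in both groups. Each genotype had 1 ChIP library and 1 input library (chromatin sequenced without the antibody). There are thus no replicates, and nothing can be said of the spread between hearts of 1 genotype or tested against it. The 95% intervals given with counts of regions and tags are exact Poisson intervals, and those of shares are Wilson intervals. They cover counting error only, and neighboring regions are not independent.

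CaMKs carry the calcium signal of each heartbeat to contraction and to the nucleus. Calcium binds calmodulin, and calcium-loaded calmodulin releases the kinase domain from its own inhibitory segment. CaMKII (*Camk2a* to *Camk2g*) assembles into large holoenzymes that stay active after the calcium falls by phosphorylating themselves; the δ form is the main one in cardiomyocytes, where it acts on the ryanodine receptor and phospholamban, and the α and β forms are best known from the brain. CaMKI (*Camk1*, *Camk1d*, *Camk1g*) and the mainly nuclear CaMKIV (*Camk4*), which phosphorylates CREB, form a cascade in which the CaMK kinases (*Camkk1*, *Camkk2*) phosphorylate their activation loops. The study compared the genotypes to ask how loss of NF-κB in dystrophic cardiomyocytes changes H3K27ac, with *Camk4* among its calcium genes of interest.

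ChIP depth was 57852347 tags (*mdx* IKKβf/f) and 62458751 tags (*mdx* HRTΔIKKβ), and the density over the autosomes was 5.24 and 9.58 regions per Mb. The caller scanned windows of 500 bp with a threshold of 29 (*mdx* IKKβf/f) or 30 tags (*mdx* HRTΔIKKβ), and required at least 4-fold enrichment over input. The caller's own score keeps to the tag threshold. The tags recomputed from the normalized values can fall below it, as in a *mdx* HRTΔIKKβ region of *Camk1d* with 25. The region lists hold only windows that passed, so a gene without a region may still carry H3K27ac below those thresholds. At the targeted gene, *Ikbkb*, *mdx* IKKβf/f had 0 regions and *mdx* HRTΔIKKβ had 1, and H3K27ac regions give no check of the deletion. The cardiomyocyte genes *Myh6*, *Myl2*, *Myl7*, *Tnnt2*, *Actc1*, *Nppb* and *Myoz2*, which heart muscle transcribes strongly, had no region in either list. Of all autosomal protein-coding genes 54.2% had none. The other cardiomyocyte markers, *Tnni3*, *Ttn*, *Ryr2*, *Pln* and *Nppa*, had at least 1. Of 12 cardiomyocyte markers only *Ttn*, in *mdx* IKKβf/f, had a region within 3 kb of an annotated transcript start, so the lists did not carry the usual marks of the labelled tissue at these genes. Over the 12, 4 *mdx* IKKβf/f regions were listed with 6.12 expected from the density of their chromosomes, and 12 *mdx* HRTΔIKKβ regions with 11.04 expected. The 3 neuron markers, genes little used in heart, held 14 *mdx* IKKβf/f regions with 5.73 expected and 23 *mdx* HRTΔIKKβ regions with 10.4 expected, of which *Rbfox3* alone held 12 and 17. Regions listed in *mdx* IKKβf/f and *mdx* HRTΔIKKβ hearts numbered 4 and 2 in 6 fibroblast markers (1.67 and 3.03 expected), 0 and 5 in 5 endothelial markers (2.60 and 4.73), 4 and 6 in 5 leukocyte markers (1.83 and 3.49), 1 and 2 in 3 smooth muscle markers (0.876 and 1.63) and 0 and 1 in 3 skeletal muscle markers (0.568 and 1.06). What part this played in the values of the CaMK genes was not tested.

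The sequences shown are the central 300 bases of selected member regions. These regions lay within 3 kb of a member's transcript start or formed the only pair found in both genotypes. The *mdx* HRTΔIKKβ regions of *Camk2a* near a start are not printed, although they include the member region closest to a 5′ end. None of the windows shown overlapped an annotated exon. Capitals mark CpG dinucleotides, which are dense in many mammalian promoters. The shared *Camk1g* window had 5 of them and 55.3% G and C, the *Camk1g* window near the gene's 5′ end 10 and 60.0%, and the *Camk2d* window 3 and 40.7%. The 3 *Camk2b* windows printed with CpG in capitals had 7, 4 and 4, in the order shown.
*Camk1g*, both lists, chr1:195187029-195187328, plus strand: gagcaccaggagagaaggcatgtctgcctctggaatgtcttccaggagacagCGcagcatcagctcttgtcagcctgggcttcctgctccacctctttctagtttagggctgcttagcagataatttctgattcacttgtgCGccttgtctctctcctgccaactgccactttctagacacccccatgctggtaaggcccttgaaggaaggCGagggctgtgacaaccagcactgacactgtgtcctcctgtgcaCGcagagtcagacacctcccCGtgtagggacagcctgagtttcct
*Camk1g*, *mdx* HRTΔIKKβ, chr1:195194268-195194567, plus strand: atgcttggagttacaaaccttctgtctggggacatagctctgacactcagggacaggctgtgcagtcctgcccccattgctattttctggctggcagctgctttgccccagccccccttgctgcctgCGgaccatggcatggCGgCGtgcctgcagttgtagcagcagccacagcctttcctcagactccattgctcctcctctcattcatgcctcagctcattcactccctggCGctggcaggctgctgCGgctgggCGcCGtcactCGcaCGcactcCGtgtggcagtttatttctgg
*Camk2b*, *mdx* IKKβf/f, chr11:5883164-5883463, plus strand: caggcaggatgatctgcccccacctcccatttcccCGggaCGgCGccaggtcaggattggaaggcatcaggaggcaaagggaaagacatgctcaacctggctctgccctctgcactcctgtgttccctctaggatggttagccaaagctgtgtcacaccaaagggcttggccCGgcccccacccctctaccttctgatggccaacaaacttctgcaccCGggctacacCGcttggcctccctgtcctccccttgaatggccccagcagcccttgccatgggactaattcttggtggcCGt
*Camk2b*, *mdx* IKKβf/f, chr11:5967283-5967582, plus strand: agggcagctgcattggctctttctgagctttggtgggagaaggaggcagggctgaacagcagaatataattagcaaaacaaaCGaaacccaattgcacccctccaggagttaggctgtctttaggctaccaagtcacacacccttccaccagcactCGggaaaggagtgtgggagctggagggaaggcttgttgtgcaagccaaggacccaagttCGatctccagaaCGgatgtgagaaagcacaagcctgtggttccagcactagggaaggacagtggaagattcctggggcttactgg
*Camk2b*, *mdx* HRTΔIKKβ, chr11:5881771-5882070, plus strand: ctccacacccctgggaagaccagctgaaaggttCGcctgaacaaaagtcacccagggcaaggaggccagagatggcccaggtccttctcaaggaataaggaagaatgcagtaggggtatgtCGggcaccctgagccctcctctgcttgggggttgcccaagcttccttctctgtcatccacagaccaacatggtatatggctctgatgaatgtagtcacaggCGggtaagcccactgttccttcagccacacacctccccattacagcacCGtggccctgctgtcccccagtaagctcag
*Camk2d*, *mdx* HRTΔIKKβ, chr3:126501760-126502059, plus strand: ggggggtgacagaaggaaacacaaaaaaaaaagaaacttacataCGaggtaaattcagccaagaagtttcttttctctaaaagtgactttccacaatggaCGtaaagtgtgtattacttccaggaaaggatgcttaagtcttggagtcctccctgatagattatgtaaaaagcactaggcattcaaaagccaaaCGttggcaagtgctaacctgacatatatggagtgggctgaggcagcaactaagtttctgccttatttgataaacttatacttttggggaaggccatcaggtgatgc

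The *Camk2b* and *Camkk1* windows below each held 1 match to the NF-κB consensus, which is 10 bases long, and capitals mark that match instead. In *Camk2b* it lay at chr11:5964294-5964303 and in *Camkk1* at chr11:72837626-72837635. A match is a string of letters and not a measured binding site.
*Camk2b*, *mdx* HRTΔIKKβ, chr11:5964133-5964432, plus strand: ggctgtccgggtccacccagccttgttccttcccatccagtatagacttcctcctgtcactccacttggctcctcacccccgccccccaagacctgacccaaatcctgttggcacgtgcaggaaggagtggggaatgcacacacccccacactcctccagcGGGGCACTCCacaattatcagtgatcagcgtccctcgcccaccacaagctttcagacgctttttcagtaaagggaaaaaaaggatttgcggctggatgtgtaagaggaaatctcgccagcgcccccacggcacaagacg
*Camkk1*, *mdx* HRTΔIKKβ, chr11:72837466-72837765, plus strand: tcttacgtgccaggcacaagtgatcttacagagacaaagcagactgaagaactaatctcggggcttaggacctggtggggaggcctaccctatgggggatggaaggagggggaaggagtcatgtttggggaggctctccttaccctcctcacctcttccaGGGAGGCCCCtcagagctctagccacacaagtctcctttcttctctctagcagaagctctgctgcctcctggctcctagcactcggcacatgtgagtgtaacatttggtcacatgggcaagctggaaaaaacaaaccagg

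CaMK genes held more H3K27ac regions than the density of their chromosomes gives for their length. There were 14 regions in *mdx* IKKβf/f (interval 7.65 to 23.5) where 7.27 were expected, a ratio of 1.92 (1.05 to 3.23), and 27 in *mdx* HRTΔIKKβ hearts (17.8 to 39.3) where 13.4 were expected, a ratio of 2.01 (1.32 to 2.92). Over all autosomal protein-coding genes the same ratios were 1.04 and 1.07, and over the 2926 with spans of at least 100 kb they were 1.03 and 1.03. The excess was uneven. *Camk1g* and *Camk2b* together held 7 of the 14 *mdx* IKKβf/f regions, and 9 of the 27 found for *mdx* HRTΔIKKβ hearts. Without *Camk1g* the ratios were 1.56 (0.777 to 2.78, which includes 1) and 1.76. Without both genes they were 1.10 (0.442 to 2.27) and 1.54 (0.911 to 2.43), and both intervals include 1. The spans were also richer in G and C than their chromosomes in 8 of 10 genes, and the regions of both lists had a median of 47.8% G and C. Against the density of 1 kb windows of the same G and C class, the expected counts were 10.2 and 18.8. The ratios were 1.37 (0.751 to 2.31) and 1.44 (0.946 to 2.09), with intervals that include 1. By the same measure all autosomal protein-coding genes had 0.870 and 0.897, and those with spans of at least 100 kb 1.007 and 1.001. The *mdx* IKKβf/f interval includes both of its values. The *mdx* HRTΔIKKβ interval lies above that of all genes but includes that of the long ones.

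**Figure D1:**
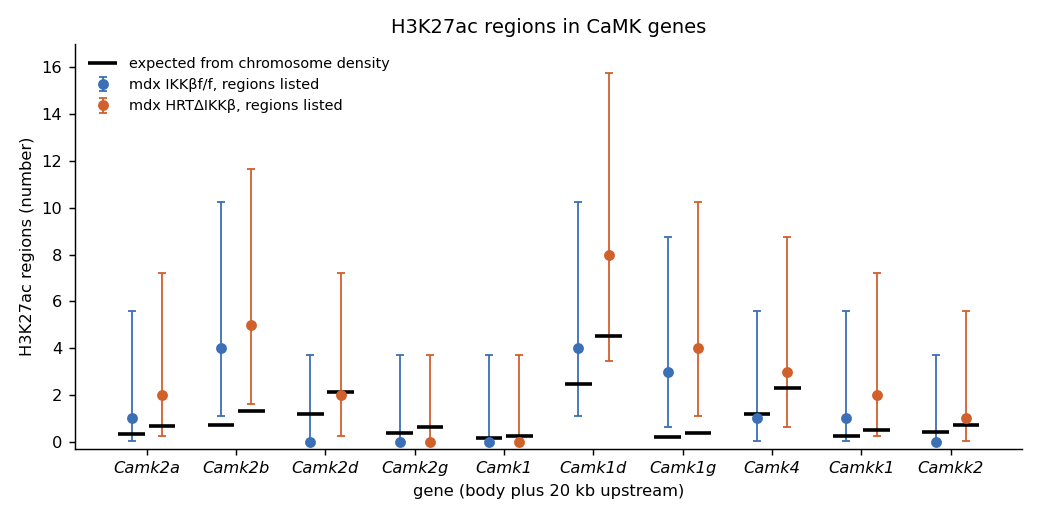
Number of H3K27ac regions (vertical axis) centered in the span of each CaMK gene (horizontal axis), with 1 library per genotype. Points are the regions listed, vertical lines exact Poisson 95% intervals and black bars the number expected from the length of the span and the density of its chromosome. *Camk1g* and *Camk2b* stand above their bars in both lists, *Camk4* at 1 and 3 close to its bars of 1.18 and 2.28, and *Camk1* and *Camk2g* are at 0.

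At least 1 *mdx* IKKβf/f region was listed in 6 of the 10 genes, against 22.7% of all autosomal protein-coding genes and 54.3% of those with spans of at least 100 kb. In *mdx* HRTΔIKKβ it was 8 of 10, against 36.4% and 71.8%. The CaMK genes are long, with a median span of 80.9 kb against 35.5 kb for all. At least 2 times the expected count was reached by 4 genes in each list, *Camk1g*, *Camk2b*, *Camk2a* and *Camkk1*, against 17.1% and 23.1% of all genes and 16.5% and 14.9% of the long ones. Against windows of the same G and C class 2 genes per list reached it, *Camk1g* (6.44) and *Camk2b* (2.79) for *mdx* IKKβf/f, and for *mdx* HRTΔIKKβ *Camk1g* (4.58) and *Camkk1* (2.02). The share of all genes that reached it by G and C class was not computed, so these counts have no background. The 6 genes with an *mdx* IKKβf/f region all had *mdx* HRTΔIKKβ regions too. Among all genes with an *mdx* IKKβf/f region this held for 2852 of 4855, and among the long ones for 1331 of 1589. Taken over every gene, with or without a region, regions in both lists were present in 13.3%, and in 45.5% of the long ones. *Camk1* and *Camk2g* had no region in either list, as did 54.2% of all genes and 19.3% of the long ones. The ratio of observed to expected had a median of 1.24 and 1.58 over the members, 0 and 0 over all genes, and 0.618 and 0.805 over the long genes.

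More *mdx* HRTΔIKKβ than *mdx* IKKβf/f regions were listed in all 8 genes with any region, and more *mdx* IKKβf/f regions in 0 of 10. In the background 28.6% of all genes and 51.9% of long genes had more *mdx* HRTΔIKKβ regions, and 11.3% and 16.2% had more *mdx* IKKβf/f regions. These shares count genes without any region too. Among genes with a region in either list, 6124 had more *mdx* HRTΔIKKβ regions, 2417 more *mdx* IKKβf/f regions and 1261 equal numbers. For long genes these were 1520, 475 and 365. The 27 against 14 regions are a ratio of 1.93 (0.976 to 3.98), beside 1.90 over all autosomal protein-coding genes and 1.83 over the whole lists, so the members differed between the lists about as other genes did. That difference depends on the tag threshold, which was 2.01 times the tags expected per window for *mdx* IKKβf/f but 1.92 times for *mdx* HRTΔIKKβ hearts. The peak score is a whole number per region whose lowest value in each list is the tag threshold. Scaled to the *mdx* HRTΔIKKβ depth, the *mdx* IKKβf/f threshold was 31.3. Regions of *mdx* HRTΔIKKβ hearts were then kept only at a score of 32 or more, a slightly stricter cut. Of the 27, 15 remained beside the 14 *mdx* IKKβf/f regions, a ratio of 1.07. The whole list then held 13905 *mdx* HRTΔIKKβ regions, a ratio of 1.11. Both ratios depend on that rounding, since 21.9% of the *mdx* HRTΔIKKβ list scored below 31 and 39.5% below 32. At the cut of 32 *Camk1d* had 4 *mdx* IKKβf/f and 2 *mdx* HRTΔIKKβ regions and *Camkk1* 1 and 0, the opposite order. *Camk2b* (4 and 4) and *Camk4* (1 and 1) were level. The *mdx* HRTΔIKKβ regions dropped from *Camk1d*, *Camkk1* and *Camk2b* scored 30 or 31, so the orders of these genes rest on a cut of 32 rather than 31. *Camk1g* (3 and 4), *Camk2a* (1 and 2), *Camk2d* (0 and 1) and *Camkk2* (0 and 1) kept more *mdx* HRTΔIKKβ regions.

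**Figure D2:**
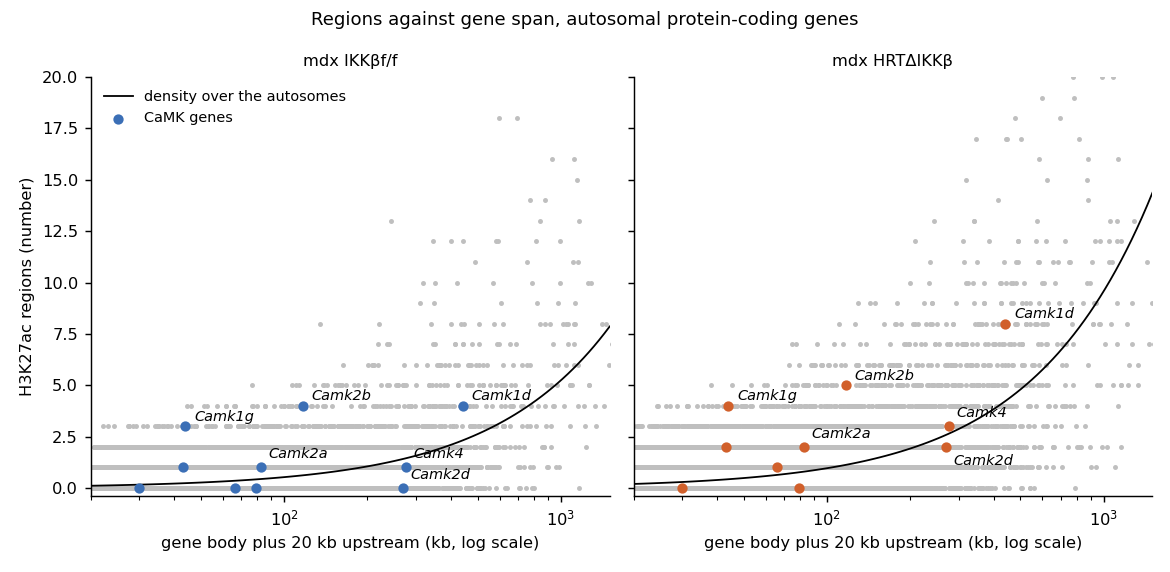
Number of H3K27ac regions (vertical axis) against span length in kb (horizontal log axis) for autosomal protein-coding genes (grey) and CaMK genes (colored), in *mdx* IKKβf/f (left) and *mdx* HRTΔIKKβ (right). The line is the mean density over the autosomes, and 1 *mdx* IKKβf/f and 12 *mdx* HRTΔIKKβ genes above 20 regions and 13 genes with spans over 1500 kb lie outside the axes. *Camk1g* stands well above the line for its 44.0 kb, and *Camk4* and *Camk2d* lie near it or below.

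The 4 CaMKII genes together held 5 *mdx* IKKβf/f regions with 2.62 expected (ratio 1.91, 0.619 to 4.45) and 9 *mdx* HRTΔIKKβ regions with 4.78 expected (ratio 1.88, 0.861 to 3.57). Against windows of the same G and C class the ratios were 1.19 and 1.17. Most of these lay in *Camk2b*, the β form. *Camk2b* (ENSMUSG00000057897.7; chr11:5869647-5966365, minus strand; span 117 kb) had 4 *mdx* IKKβf/f regions with 0.709 expected and 5 *mdx* HRTΔIKKβ regions with 1.33 expected. The G and C rich span (51.6%, chromosome 43.8%) raises the expected counts to 1.43 and 2.61. A region of *mdx* IKKβf/f hearts lay just upstream of the 5′ end, at chr11:5967107-5967758, with 6.91 normalized tags (tags per 10000000 of the library; interval 4.94 to 9.42) and 9.18-fold enrichment over input. The *mdx* HRTΔIKKβ list had none there but had one 3150 bp away in intron 1, at chr11:5963966-5964598, with 7.04 normalized tags (5.12 to 9.46) and 5.03-fold enrichment, the region whose center holds the NF-κB match printed above. Each genotype thus had 1 region within 3 kb of the 5′ end of *Camk2b*, on opposite sides of it.

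A second pair lay toward the 3′ end of *Camk2b*, where shorter transcripts start. The *mdx* HRTΔIKKβ region at chr11:5881608-5882233 in intron 15 had 9.13 normalized tags (6.91 to 11.8) and a peak score of 53, higher than 99.7% of its list. In *mdx* IKKβf/f hearts, the region at chr11:5883063-5883563 in intron 13, 1393 bp away, had 5.01 normalized tags (3.36 to 7.20) and a score of 30, 1 above the threshold. The highest *mdx* IKKβf/f region of the gene lay at chr11:5921229-5921961 in intron 2, with 7.61 normalized tags (5.53 to 10.2) and 7.57-fold enrichment, and no *mdx* HRTΔIKKβ region was listed within 27.7 kb of it. The 4 other *Camk2b* regions, of which 3 were from *mdx* HRTΔIKKβ hearts, had 4.80 to 5.60 normalized tags. None of the 9 *Camk2b* regions overlapped a region of the other genotype.

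*Camk2a*, the α form (ENSMUSG00000024617.10; chr18:61085272-61147806, plus strand; span 82.5 kb), had 1 *mdx* IKKβf/f region with 0.353 expected and 2 *mdx* HRTΔIKKβ regions with 0.681 expected. Its span had 50.9% G and C against 41.4% for its chromosome, and windows of the same class gave 1.02 and 1.90 expected, close to the counts listed (ratios 0.984 and 1.05). The *mdx* HRTΔIKKβ region at chr18:61084968-61085468 was the member region closest to a 5′ end, with its center 54 bp upstream. It had 6.40 normalized tags (4.58 to 8.72), a peak score of 42 and 11.4-fold enrichment over input, above 93.1% of its list, and its 500 bp held 17 CpG dinucleotides. The nearest *mdx* IKKβf/f region lay 18.6 kb away in intron 2, at chr18:61103526-61104151, and also had 6.40 normalized tags (4.50 to 8.82), with 6.37-fold enrichment. The other *mdx* HRTΔIKKβ region, at chr18:61123639-61124139 in intron 13, lay 635 bp from the start of a shorter transcript and had 5.12 normalized tags (3.50 to 7.23) and 4.58-fold enrichment. In the list of the *mdx* IKKβf/f hearts no region lay within 3 kb of any *Camk2a* transcript start.

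*Camk2d*, the main cardiac form (ENSMUSG00000053819.9; chr3:126299220-126547972, plus strand; span 269 kb), had 0 *mdx* IKKβf/f regions, with an upper limit of 3.69 and 1.19 expected, and 2 *mdx* HRTΔIKKβ regions with 2.11 expected. Its span had 40.3% G and C, close to the 40.5% of its chromosome. The *mdx* HRTΔIKKβ region at chr3:126501659-126502159 in intron 12, 753 bp from the start of a shorter transcript, had 4.96 normalized tags (3.37 to 7.04). Its enrichment of 35.5-fold was the highest of any member region, but no input tag was counted there and the caller used 0.5 in place of 0. Its 31 ChIP tags and peak score of 32 were ordinary for the list, whose median score was 32. The other, in intron 2, had 4.64 normalized tags and a score of 30, at the threshold. *Camk2g* (ENSMUSG00000021820.9; chr14:21554097-21613310, minus strand; span 79.2 kb), the γ form, had no region in its span, with 0.365 and 0.653 expected. A *mdx* HRTΔIKKβ region lay just beyond it, 2436 bp past the upstream limit. The γ and δ genes, CaMKII forms used widely outside the brain, had 2 *mdx* HRTΔIKKβ regions and 0 *mdx* IKKβf/f regions between them.

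**Figure D3:**
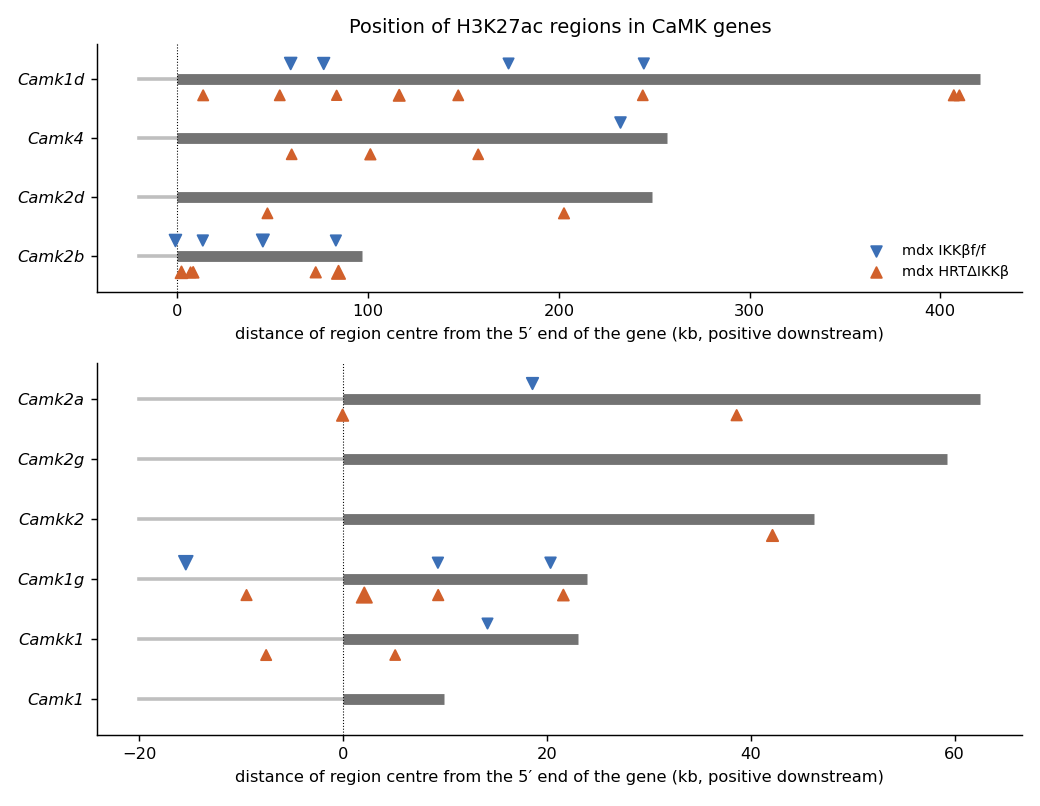
Position of each H3K27ac region in the CaMK genes, as the distance of its center from the 5′ end of the gene in kb (horizontal axis; dotted line at 0, positive into the gene), for 1 gene per row. Blue symbols above the gene are *mdx* IKKβf/f regions, orange symbols below it *mdx* HRTΔIKKβ regions, larger for more normalized tags; thick bars are gene bodies and thin bars the 20 kb upstream. Some regions of *Camk1g* and *Camk2b* lie close to one of the other list and others do not, and those of *Camk4* lie deep in the gene and far from each other.

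The 3 CaMKI genes held 7 *mdx* IKKβf/f regions with 2.79 expected (ratio 2.51, 1.01 to 5.17) and 12 *mdx* HRTΔIKKβ regions with 5.16 expected (ratio 2.33, 1.203 to 4.07). Against windows of the same G and C class the ratios were 1.90 (0.763 to 3.91) and 1.74 (0.898 to 3.04), and both intervals include 1. *Camk1g*, which codes for CaMKIγ, had the highest density of any member. In its span of 44.0 kb (ENSMUSG00000016179.5; chr1:195172540-195196491, minus strand), 3 *mdx* IKKβf/f regions were listed with 0.202 expected and 4 *mdx* HRTΔIKKβ regions with 0.388 expected. These are ratios of 14.9 (3.06 to 43.4) and 10.3 (2.81 to 26.4), or 6.44 and 4.58 against windows of the same G and C class. The span also held the strongest member regions of both lists by normalized tags. In *mdx* HRTΔIKKβ this was chr1:195193848-195194987, 1139 bp wide and centered in intron 1, 2074 bp downstream of the 5′ end, with 12.8 normalized tags (10.2 to 15.9; 80 tags). It ranked 24 in its list and was enriched 6.54-fold over input, but its peak score of 32 was the median of the list, and per kb it had 11.2 normalized tags against a list median of 9.92. In *mdx* IKKβf/f it was chr1:195211554-195212312, 15.4 kb upstream of the 5′ end, with 10.0 normalized tags (7.61 to 13.0; 58 tags), rank 80 in its list, a peak score of 45 and 5.70-fold enrichment. The 2 strongest regions lay at different places in the gene, and the region of the other genotype nearest to each was 7225 and 5959 bp away.

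The only overlap between the lists in any CaMK gene lay in intron 2 of *Camk1g*, 1089 bp (*mdx* IKKβf/f) and 1116 bp (*mdx* HRTΔIKKβ) from the start of a shorter transcript. For *mdx* IKKβf/f hearts the region was chr1:195186942-195187442, with 5.19 normalized tags (3.50 to 7.40; 30 tags) and 5.16-fold enrichment. For *mdx* HRTΔIKKβ hearts it was chr1:195186915-195187415, with 5.12 normalized tags (3.50 to 7.23; 32 tags) and 9.15-fold enrichment. Their centers were 27 bp apart. The ChIP tags were level and the input differed, with 4 input tags for *mdx* IKKβf/f but 2 for *mdx* HRTΔIKKβ. The remaining *Camk1g* regions, of which 2 were from *mdx* HRTΔIKKβ hearts, had 4.96 to 5.76 normalized tags, and the *mdx* IKKβf/f region in intron 9 lay 1259 bp from a *mdx* HRTΔIKKβ region in intron 10.

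*Camk1d*, which codes for CaMKIδ, is the longest member (ENSMUSG00000039145.9; chr2:5214503-5635561, minus strand; span 441 kb). It had 4 *mdx* IKKβf/f regions with 2.45 expected and 8 *mdx* HRTΔIKKβ regions with 4.50 expected, ratios of 1.63 (0.445 to 4.18) and 1.78 (0.767 to 3.50), or 1.36 and 1.45 against windows of the same G and C class. All 12 were intronic, and the one closest to the 5′ end lay 13.5 kb from it. The highest *mdx* IKKβf/f region, chr2:5575946-5576446 in intron 1, had 6.91 normalized tags (4.94 to 9.42), a peak score of 40 and 4.59-fold enrichment. The highest *mdx* HRTΔIKKβ region, chr2:5519031-5519531 in intron 1, had 6.08 (4.31 to 8.35), a score of 38 and 4.35-fold enrichment. The other 7 *mdx* HRTΔIKKβ regions had 4.0 to 4.96 normalized tags and scores of 30 to 32, at or next to the threshold. An *mdx* IKKβf/f and a *mdx* HRTΔIKKβ region in intron 2 had centers 543 bp apart without overlapping. *Camk1* (ENSMUSG00000030272.8; chr6:113284118-113293978, minus strand; span 29.9 kb), which codes for CaMKIα, had no region, with 0.140 and 0.263 expected.

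*Camk4*, which codes for CaMKIV, had 1 *mdx* IKKβf/f and 3 *mdx* HRTΔIKKβ regions (ENSMUSG00000038128.5; chr18:33098695-33355421, plus strand; span 277 kb). Its length and chromosome gave 1.18 and 2.28 expected, and the ratios were 0.844 (0.0214 to 4.70) and 1.31 (0.271 to 3.84). The *mdx* IKKβf/f region lay at chr18:33330354-33330854 in intron 7, 232 kb from the 5′ end, with 5.53 normalized tags (3.78 to 7.81; 32 tags), a peak score of 33, 5 input tags and 4.41-fold enrichment. In the *mdx* HRTΔIKKβ hearts the regions lay at chr18:33158323-33158823 and chr18:33199589-33200089 in intron 1 and at chr18:33256142-33256642 in intron 2. Their normalized tags were 4.48 (2.98 to 6.48), 5.12 (3.50 to 7.23) and 4.48 (2.98 to 6.48), their peak scores 30, 32 and 30, and their enrichment 4.0-fold, 6.10-fold and 5.34-fold. All 4 were single windows of 500 bp, and the *mdx* IKKβf/f region had more normalized tags than any of the *mdx* HRTΔIKKβ regions, with overlapping intervals. The first *mdx* HRTΔIKKβ region sat exactly at the 4-fold limit, where the lowest value of the list is also 4.0. The *Camk4* region closest to the 5′ end was 59.9 kb downstream of it, and the nearest *mdx* IKKβf/f region to each *mdx* HRTΔIKKβ region of *Camk4* was 172, 131 and 74.2 kb away.

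Set against its paralogs, *Camk4* had the lower density. The other 9 members held 13 *mdx* IKKβf/f regions, a ratio to expected of 2.14 (1.14 to 3.65), and 24 *mdx* HRTΔIKKβ regions, a ratio of 2.15 (1.38 to 3.20). The intervals of *Camk4* include these values in both lists. Without *Camk1g* and *Camk2b* the ratios of the other members were 1.16 (0.425 to 2.52) and 1.59 (0.890 to 2.62). Gene by gene, *Camk1*, *Camk2d*, *Camk2g* and *Camkk2* had lower *mdx* IKKβf/f ratios than *Camk4* (all 0). For *mdx* HRTΔIKKβ *Camk1* and *Camk2g* (0) and *Camk2d* (0.947) were lower. The remaining paralogs were higher. By regions per Mb, *Camk4* had 3.61 (*mdx* IKKβf/f) and 10.8 (*mdx* HRTΔIKKβ), the other 9 members 11.1 and 20.5, and all autosomal protein-coding genes 5.50 and 10.4. The span of *Camk4* is poor in G and C (40.5%, chromosome 41.4%), unlike most members. Against windows of the same G and C class, the ratios were 0.911 for *Camk4* and 1.43 for the others (*mdx* IKKβf/f), or 1.53 and 1.42 (*mdx* HRTΔIKKβ), where the order turned. The paralog closest in length and base composition, *Camk2d*, had 0 and 2 regions, 1 fewer than *Camk4* in each list.

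Other genes of the same length had similar counts. Among 426 autosomal protein-coding genes with spans within 20% of that of *Camk4*, the median was 1 *mdx* IKKβf/f and 2 *mdx* HRTΔIKKβ regions. At least 3 *mdx* HRTΔIKKβ regions were listed in 42.3% of them, and 61.5% had more *mdx* HRTΔIKKβ than *mdx* IKKβf/f regions. Counts of 1 and 3 were shared by 178 non-member genes. Those nearest in span to *Camk4* were *Spag17* (278 kb), *a*, the agouti gene (279.6 kb), and *D430041D05Rik* (287 kb). At the score cut of 32 only the *mdx* HRTΔIKKβ region at chr18:33199589-33200089 was left in *Camk4*.

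The CaMK kinase genes held 1 *mdx* IKKβf/f region with 0.678 expected and 3 *mdx* HRTΔIKKβ regions with 1.22 expected. By windows of the same G and C class 1.21 and 2.24 were expected (ratios 0.826 and 1.34), which puts the first below its expected count. *Camkk1*, which codes for CaMKKα (ENSMUSG00000020785.11; chr11:72832510-72855575, plus strand; span 43.1 kb), had 1 and 2 of these, with 0.261 and 0.492 expected, or 0.541 and 0.989 by G and C class. The *mdx* HRTΔIKKβ region at chr11:72837365-72837865 in intron 1, 2472 bp from the start of a shorter transcript, had 4.48 normalized tags (2.98 to 6.48), a score of 30 and 4.0-fold enrichment, at both limits of the caller, and it holds the NF-κB match printed above. The other *mdx* HRTΔIKKβ region, chr11:72824703-72825203, had the highest normalized tags of the gene in that list at 4.80 (3.24 to 6.86), with 8.58-fold enrichment, and lay 7557 bp upstream of *Camkk1* inside the neighboring gene *P2rx1*, so it cannot be assigned to *Camkk1* by position alone. The *mdx* IKKβf/f region of *Camkk1*, chr11:72846385-72846885 in intron 9, had 4.84 (3.22 to 7.00), a score of 29 and 4.82-fold enrichment. *Camkk2*, which codes for CaMKKβ (ENSMUSG00000029471.8; chr5:123183213-123229391, minus strand; span 66.2 kb), had 0 *mdx* IKKβf/f regions and 1 *mdx* HRTΔIKKβ region with 0.416 and 0.725 expected, or 0.669 and 1.25 by G and C class. That region, chr5:123187023-123187655 in intron 16, had 6.24 normalized tags (4.44 to 8.54), a peak score of 38 and 5.58-fold enrichment. The nearest *mdx* IKKβf/f region was 546 kb away.

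Member regions had values like those of the lists they came from. Normalized tags had a median of 5.45 over the 14 *mdx* IKKβf/f regions, with a range of 4.84 to 10.0, and 5.36 over the whole list (quartiles 5.01 and 6.05). The 27 *mdx* HRTΔIKKβ regions had a median of 4.96 with a range of 4.0 to 12.8, against 5.12 (quartiles 4.80 and 5.76). A peak score within 5 tags of the calling threshold was found in 10 of 14 regions (71.4%, list 79.7%) for *mdx* IKKβf/f and 21 of 27 (77.8%, list 77.7%) for *mdx* HRTΔIKKβ. Enrichment over input had a median of 5.20-fold and 5.34-fold, against 5.16-fold and 5.0-fold over the lists. Single windows of 500 bp made up 9 of 14 and 22 of 27 member regions, and 85.8% and 84.0% of the lists. A member region of median height rested on about 31 ChIP tags and 4 input tags in a 500 bp window.

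**Figure D4:**
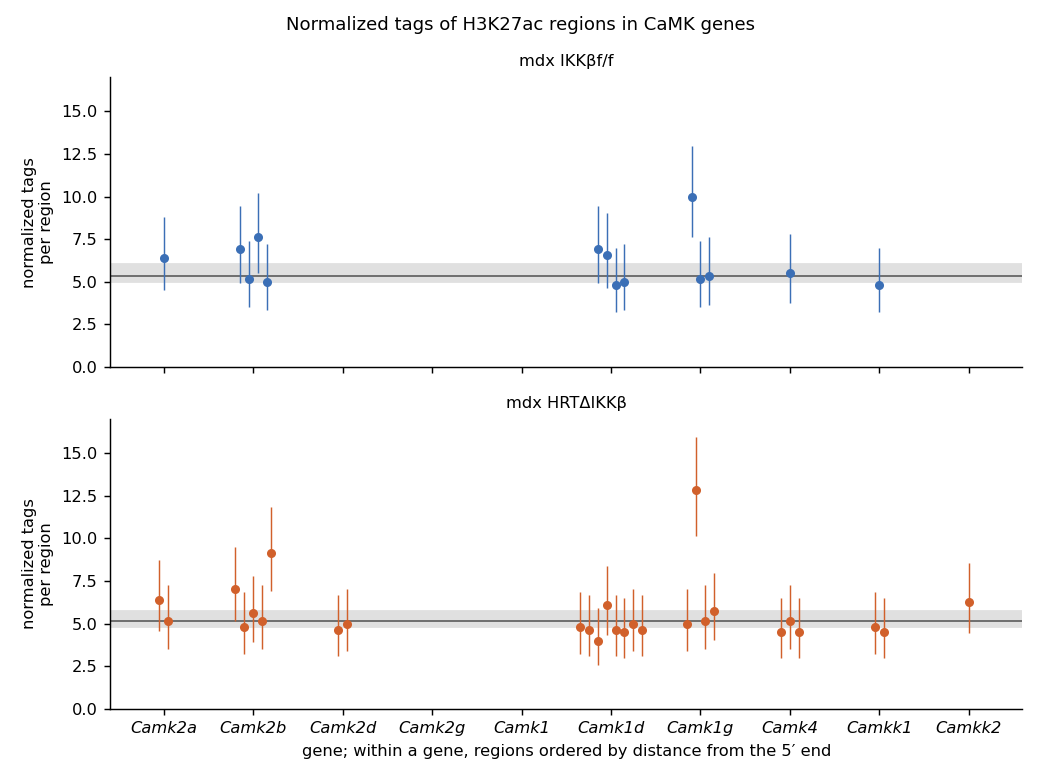
Normalized tags (tags per 10000000 of the library, vertical axis) of every H3K27ac region in the CaMK genes (horizontal axis), ordered within a gene from the 5′ end, for *mdx* IKKβf/f (top) and *mdx* HRTΔIKKβ (bottom). Vertical lines are Poisson 95% intervals, and the horizontal line and grey band are the median and quartiles of the whole list. The *Camk1g* regions at 10.0 and 12.8 stand clear of the band, and the *Camk4* regions at 4.48 to 5.53 lie in or just below it.

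Introns held 12 of 14 regions in *mdx* IKKβf/f hearts, 24 of 27 in *mdx* HRTΔIKKβ hearts, the 20 kb upstream held 2 and 3, and 0 centers fell in exons. The part upstream held 16.7% and 17.8% of the regions in the spans of all autosomal protein-coding genes, and the share in introns was not computed for those. Within 3 kb of an annotated transcript start lay 3 regions of *mdx* IKKβf/f hearts (21.4%, 7.57% to 47.6%) and 8 of *mdx* HRTΔIKKβ hearts (29.6%, 15.9% to 48.5%). In the spans of all autosomal protein-coding genes the shares were 17.7% and 17.3%. Only 1 and 3 of them were near the 5′ end of the gene itself, those of *Camk2b* in *mdx* IKKβf/f hearts and of *Camk1g*, *Camk2a* and *Camk2b* in *mdx* HRTΔIKKβ hearts, and the rest were near starts of shorter transcripts. The CaMK genes overlapped between the lists at 1 region, 7.14% of the 14 and 3.70% of the 27 member regions, against 3.19% and 1.74% over the lists. A region of the other genotype lay within 5 kb of 5 of the 14 (35.7%) and 5 of the 27 (18.5%), against 16.4% and 9.30% over the lists. The intervals of the overlap shares, 1.27% to 31.5% and 0.657% to 18.3%, include the values of the lists.

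Member regions had a median of 50.4% (*mdx* IKKβf/f) and 51.6% (*mdx* HRTΔIKKβ) G and C over their central 500 bp, and both lists 47.8%. The highest was the *mdx* IKKβf/f region of *Camk2b* in intron 13 (59.6%) and the lowest the first *mdx* HRTΔIKKβ region of *Camk4* (37.4%). The NF-κB consensus was found, on either strand, in 2 of 14 *mdx* IKKβf/f regions (14.3%, 4.01% to 39.9%), of *Camk4* in intron 7 and *Camk1d* in intron 1, and in 2 of 27 *mdx* HRTΔIKKβ regions (7.41%, 2.06% to 23.4%), those printed above. Over the lists 9.16% and 9.22% of regions held it, and over 4786949 windows of 500 bp in the genome, 6.14%. The only NF-κB match in *Camk4* was in the *mdx* IKKβf/f region. The core motif of CTCF, an insulator protein that the study examined, and the MEF2 site, which is bound by a transcription factor that CaMK signaling activates, were found in 0 member regions of either list. They were rare, in 0.191% and 0.677% of the *mdx* IKKβf/f list, 0.213% and 0.527% of the *mdx* HRTΔIKKβ list and in 0.248% and 1.09% of genomic windows. No member region held matches of more than 1 motif, and no match means only that these letters were not in the window.

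Other genes of the CaMK pathway, from a list of 25, held 23 *mdx* IKKβf/f regions with 15.5 expected (ratio 1.48) and 42 *mdx* HRTΔIKKβ regions with 28.6 expected (ratio 1.47). *Camta1* alone held 9 and 24 of these regions, with 4.75 and 8.72 expected, and the ratios without it were not computed. Neither intervals nor a comparison by G and C class were computed for the pathway ratios. Of the 25 genes, 10 had an *mdx* IKKβf/f region and 8 a *mdx* HRTΔIKKβ region. The shares of all autosomal protein-coding genes with a region were 22.7% and 36.4%. In the pathway list 12 of 25 genes had none, 6 had more *mdx* HRTΔIKKβ regions and 6 more *mdx* IKKβf/f regions. Among all autosomal protein-coding genes these shares were 54.2%, 28.6% and 11.3%. The CaMKII inhibitor genes *Camk2n1* and *Camk2n2* held 1 *mdx* IKKβf/f region, in *Camk2n2*, and 0 *mdx* HRTΔIKKβ regions. Among related kinases, *Dapk1*, a death-associated kinase, had 2 and 6 regions with 0.906 and 1.61 expected, and *Mylk*, which codes for myosin light chain kinase, 3 and 7 with 1.28 and 2.45 expected. Its heart form, *Mylk3*, had none. *Ppm1e*, a phosphatase of CaMKs, had 2 *mdx* IKKβf/f and 0 *mdx* HRTΔIKKβ regions, and its relative *Ppm1f* 0 and 1.

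The substrates and targets of the CaMKs held 13 *mdx* IKKβf/f and 28 *mdx* HRTΔIKKβ regions with 10.6 and 19.6 expected, most of them in 1 gene. *Camta1*, a calmodulin-binding transcription activator with a span of 822 kb, had 9 and 24 regions with 4.75 and 8.72 expected. *Hdac4*, whose export from the nucleus CaMKII drives, had 2 and 1, and *Hdac5* 0 and 1, the latter within 3 kb of a transcript start. The partners of these deacetylases, *Mef2a*, *Mef2c* and *Mef2d*, and *Creb1*, the target of CaMKIV, had no region in either list. *Pln*, which codes for phospholamban, had 0 and 1. AMP-activated kinase, which CaMKKβ activates, had 1 *mdx* IKKβf/f region in *Prkaa1* and none in *Prkaa2*. Of the 23 *mdx* IKKβf/f and 42 *mdx* HRTΔIKKβ pathway regions, 0 and 2 lay within 3 kb of a transcript start, in *Mylk* and *Hdac5*. None of the *Camta1* regions did. In the CaMK genes these were 3 of 14 and 8 of 27 regions. In the spans of all autosomal protein-coding genes the shares were 17.7% and 17.3%, within the intervals of the CaMK shares.

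Beyond the spans, 7 more regions lay within 20 kb of their edges. In *mdx* IKKβf/f these were 975 bp downstream of *Camk2b*, 12.4 and 17.2 kb from the *Camk1g* span on either side, of which the downstream one lay in *Lamb3*, and 19.9 kb upstream of the *Camk1d* span. In *mdx* HRTΔIKKβ they were the *Camk2g* region named above, another 15.96 kb downstream of *Camk2g* in *2310021P13Rik*, and 1 located 17.6 kb downstream of *Camk2a* in *Slc6a7*.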

How the data were processed

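H3K27ac ChIP-seq of whole *mdx* IKKβf/f and *mdx* HRTΔIKKβ hearts gave 1 region list per genotype, made against its own input. The input libraries have no files analysed here and enter through the lists. The authors mapped reads uniquely to mm9 with Bowtie2 and called regions with HOMER findPeaks in histone mode; versions are not given in the sources used here. Normalized and input tags were deposited as signal, the former per 10000000 ChIP tags and the latter as counted, with 0.5 for 0. The deposited score is a whole number whose lowest value equals the tag threshold of its list; it is not the normalized tags rescaled, and is used here only relative to that threshold and to the other regions. Fold over input, a ratio, was computed by the authors from depth-scaled tags, and the p-value they deposited was used only as their filter at 0.0001. Positions and widths are in bp.

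Regions were placed by their center in gene body plus 20 kb upstream (GENCODE vM1). Chromosome names and lengths of the reference (NCBIM37) are those of mm9. Expected counts were span length times regions per Mb of chromosome sequence without N. Windows of 1 kb in classes of 2% G and C gave an alternative. Tag intervals used tags recomputed from the normalized values. The 18 *mdx* IKKβf/f and 25 *mdx* HRTΔIKKβ regions on unplaced sequence were left out of densities, expected counts, base composition and motif shares. They stayed in the list totals, ranks, overlap shares and the whole list cut by score. No test was run, since each genotype had 1 ChIP library. Motifs were searched on both strands of the central 500 bp. Sequence was read from NCBIM37.

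The members, pathway genes and markers were chosen with earlier results of these data known. Of 38 markers 37 were found; the older name *Emr1* served for *Adgre1*. All 10 members are named, and regions in *Camk4*, within 3 kb of a member's transcript start, shared, or highest of their gene and list are given in full; sequence is printed for those near a start or shared, none from chromosome 18. Alternatives covered span, threshold, merging, expected density, overlap and tag measure. Counting and intervals were tested on simulated regions with known answers, and 10 of 10 checks passed. The software was SciPy 1.17.1, NumPy 2.4.6 and pandas 2.3.3 in Python 3.11.15, with matplotlib 3.10.9 for plots.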

Additional observations from a re-analysis of the deposited data

How the results depend on the processing

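Of 122 values recomputed under 17 alternatives, 95 stayed within their interval (counts, within 1.5 times) and 27 moved. Some of the 95 could not move. These were the *Camk4* values when only other genes were left out, and the *mdx* IKKβf/f values under the threshold scaled to equal depth, which left that list unchanged. No paired analysis was possible because each genotype has 1 ChIP library, and no library could be left out. The alternatives without *Camk1g* and without *Camk1g* and *Camk2b* were added after seeing the data. The interval of the CaMK ratio for *mdx* IKKβf/f, which excludes 1 as reported, included 1 with the gene body only (0.991 to 3.35), at 5-fold (0.925 to 4.22) and 8-fold over input (0.597 to 8.45), at a peak score of 1.5 times the lowest, by G and C class (0.751 to 2.31), without *Camk1g* (0.777 to 2.78) and without *Camk1g* and *Camk2b*, where the ratio was 1.10 (0.442 to 2.27). For *mdx* HRTΔIKKβ it included 1 at 8-fold (0.551 to 3.96), at that peak score, by G and C class (0.946 to 2.09) and without both genes (0.911 to 2.43). At 5-fold over input, 8 *mdx* IKKβf/f and 16 *mdx* HRTΔIKKβ member regions were left, and *Camk4* had 0 *mdx* IKKβf/f regions, a ratio of 0. At 8-fold, 3 and 5 were left, and *Camk4* had 0 regions and a ratio of 0 in both lists. With the threshold scaled to equal depth and rounded up to a score of 32, the *mdx* HRTΔIKKβ members had 15 regions and *Camk4* 1. At the peak score limit 1 region was left in each list, with ratios of 10.3 and 3.60 (12.4 and 4.59 for the other 9 members), and *Camk4* had 0 regions and a ratio of 0 in both. Without *Camk1g* and *Camk2b*, 7 *mdx* IKKβf/f regions were left. With the other list extended by 1000 bp, 4 *mdx* IKKβf/f and 4 *mdx* HRTΔIKKβ regions were shared. Near the gene's 5′ end only, 1 *mdx* IKKβf/f and 3 *mdx* HRTΔIKKβ regions counted as near a start. Of all regions listed, 79.7% and 77.7% had a peak score within 5 tags of the threshold.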
